A study of Mus musculus with 30 samples.

Results

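The 9 genes described here carry dietary fat through the absorptive cells of the gut, and they were taken by name from the 14475 genes of the expression table, in which all 9 were found. Cd36 takes up fatty acids at the cell surface, Fabp1 and Fabp2 are the liver and intestinal fatty acid-binding proteins of the cytosol, and Dgat1 and Dgat2 are acyltransferases that complete triglyceride synthesis. Mttp, the microsomal triglyceride transfer protein, loads lipid onto Apob, the structural protein of chylomicrons, and Apoa1 and Apoa4 are apolipoproteins secreted with these particles. Chylomicron assembly is best known from the small intestine, where absorptive enterocytes take up fatty acids and monoglycerides, rebuild triglycerides in the endoplasmic reticulum and release them to the lymph. The colon has little part in this process, and dietary fat is mostly absorbed before it arrives there.

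The study sequenced RNA from the ascending and descending colon of mice that lacked O-glycans, the sugar chains of mucins, and of littermates colonized with the same microbiota. The 30 libraries comprised 8 ascending mutant, 7 ascending control, 8 descending mutant and 7 descending control libraries, all from females. The mutants were C1galt1 f/f; VillinCre-ERT2; C3GnT-/-, labelled TM-DKOAsc: C1galt1 is deleted on tamoxifen in cells in which the Villin promoter drives the Cre recombinase, which are gut epithelial cells, while C3GnT (B3gnt6) is missing throughout the animal. The controls are labelled Control and described as WT littermates. Mutants and controls alike received 0.5 mg of tamoxifen, about 20 mg/kg, on each of 5 days, and tissue was taken 5 or 10 days after the last dose, with no label for which. The animals came from 3 cages that each held both genotypes, with 2 or 3 libraries for each genotype and region. Cage A (3.4 months of age) is labelled C57BL/6 Background, and cages B (2.6 months) and C (3.2 months) are labelled Mixed BL/6-129SvJ, so that cage, age and strain label cannot be told apart. Whether the ascending and descending libraries with the same number came from one animal is not stated, and p-values measure the spread between these libraries.

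Values are FPKM, fragments scaled to gene length and to mapped reads, which allows levels of different genes to be compared. Depth estimated from the spacing of low values was 1.43 to 7.75 M reads in ascending mutant, 3.42 to 6.45 in ascending control, 6.57 to 8.85 in descending mutant and 3.14 to 8.78 in descending control libraries. B3gnt6 was at most 0.53 FPKM in ascending mutants, against 0.11 to 19.5 in ascending controls, and at most 0.06 FPKM in descending mutants, against 0 to 0.43 in descending controls. C1galt1 was 18.3 to 34.3 FPKM in ascending mutants and 21.5 to 45.7 in ascending controls, and 14.6 to 36.7 in descending mutants and 28.0 to 38.7 in descending controls, so its groups overlapped; the exons removed were not examined here. A pair of control libraries stood apart from the others of their region. Ascending control B1 had 1.64 FPKM of the ileal bile acid transporter Slc10a2, against 37.2 to 65.7 in the other 14 ascending libraries, and 0.03 FPKM of sucrase-isomaltase (Sis), against 2.81 to 14.6. Descending control A2 had 73.3 FPKM of the intestinal transcription factor Cdx2, against 2.79 to 47.6 in the other 14 descending libraries, and 176 FPKM of the sodium-proton exchanger Slc9a3, against 0.66 to 64.2. Results for Fabp2, Cd36, Dgat1 and Apoa1 that rest on either library are given with and without it.

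Promoters of 7 of the 9 genes were found in the RefSeq table for build GRCm38.p6, each from 250 bases before to 50 bases after the annotated gene start; those of Dgat1 and Dgat2 are not shown. Those of 3 genes are printed, because they belong to the members with the largest difference between regions (Fabp2 and Apob) and to the second cytosolic binding protein, Fabp1, which was near 0 in these libraries. Motifs searched on both strands are in capitals.
Fabp2, chr3:122894822-122895121, plus strand: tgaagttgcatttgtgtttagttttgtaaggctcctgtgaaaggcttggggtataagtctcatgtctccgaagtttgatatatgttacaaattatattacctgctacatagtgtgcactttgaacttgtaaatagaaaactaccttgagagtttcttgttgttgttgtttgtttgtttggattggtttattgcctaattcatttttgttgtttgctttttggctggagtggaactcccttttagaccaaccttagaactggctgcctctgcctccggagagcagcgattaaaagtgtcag
Apob, chr12:7977427-7977726, plus strand: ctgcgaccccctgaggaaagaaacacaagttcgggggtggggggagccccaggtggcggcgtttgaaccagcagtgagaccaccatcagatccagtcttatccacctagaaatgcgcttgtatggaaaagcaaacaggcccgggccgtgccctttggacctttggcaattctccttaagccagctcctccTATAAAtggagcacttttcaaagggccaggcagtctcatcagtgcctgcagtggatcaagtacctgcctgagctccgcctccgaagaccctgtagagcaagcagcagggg
Fabp1, chr6:71199629-71199928, plus strand: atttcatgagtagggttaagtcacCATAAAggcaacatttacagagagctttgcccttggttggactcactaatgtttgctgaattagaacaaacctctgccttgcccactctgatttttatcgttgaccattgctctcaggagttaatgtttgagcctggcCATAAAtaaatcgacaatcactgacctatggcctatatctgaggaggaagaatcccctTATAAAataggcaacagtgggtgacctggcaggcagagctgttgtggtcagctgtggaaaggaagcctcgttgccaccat
Motif TATAAA is read by the general transcription machinery. CATAAA is a motif of the Cdx homeodomain factors, while AGATAA is one of the zinc finger factors of the Gata family. CAAAGTCCA is a motif of the nuclear receptor Hnf4a. The direct repeat known as DR1, which retinoid X receptors occupy together with Ppar receptors, was searched as well. Counted from the RefSeq gene start, Fabp1 held TATAAA at 30 bases and CATAAA at 226 and 88 bases before it. Apob held TATAAA at 60 bases before its RefSeq start, and Fabp2 held none of the motifs. The GENCODE M21 starts of Fabp1 (chr6:71199827) and Apob (chr12:7977648) lie upstream of their RefSeq starts, so these distances do not hold for them. Of 32851 mouse promoters of the same length, 13.6% held TATAAA, 11.9% CATAAA, 11.2% AGATAA, 0.475% CAAAGTCCA and 0.0396% the DR1 repeat. The windows of Apoa1, Apoa4 and Mttp held no match, and that of Cd36 held CATAAA on its minus strand. For these genes too the GENCODE M21 start lies upstream of the RefSeq start. Those of Cd36 (chr5:17888801) and Mttp (chr3:138144968) lie outside their windows (chr5:17835847-17836146 and chr3:138143369-138143668). These windows are thus not the promoters of the GENCODE starts of Cd36 and Mttp. None of these matches is a shown binding site.

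The members spanned a wide range of levels. In ascending mutants the mean level was 936 ± 273 FPKM for Fabp2, 42.2 ± 10.9 for Apob, 30.7 ± 10.3 for Dgat2 and 11.8 ± 2.55 for Dgat1 (SD, n = 8), and each of the other 5 genes averaged 1.37 FPKM or less. In ascending controls these means were 501 ± 230 FPKM for Fabp2, 46.7 ± 13.3 for Apob, 29.0 ± 6.41 for Dgat2 and 13.1 ± 3.13 for Dgat1 (SD, n = 7). In both genotypes every ascending library had more Fabp2 than Apob and more Dgat2 than Dgat1, whereas the ranges of Apob and Dgat2 overlapped, so these neighbours in the order did not separate. The order was different in the descending colon, where Apob, Dgat1 and Dgat2 averaged 11.6, 11.1 and 14.2 FPKM in mutants and 11.6, 10.8 and 13.5 FPKM in controls with overlapping ranges, and Fabp2 had a median of 5.65 FPKM in mutants and 4.14 FPKM in controls. Fabp1 never passed 4.24 FPKM and was listed at 0 in 2 of 8 ascending mutant, 3 of 7 ascending control, 5 of 8 descending mutant and 4 of 7 descending control libraries. For this short gene 1 read is worth an estimated 0.204 to 1.27 FPKM, so its values rest on a few reads.

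**Figure D1:**
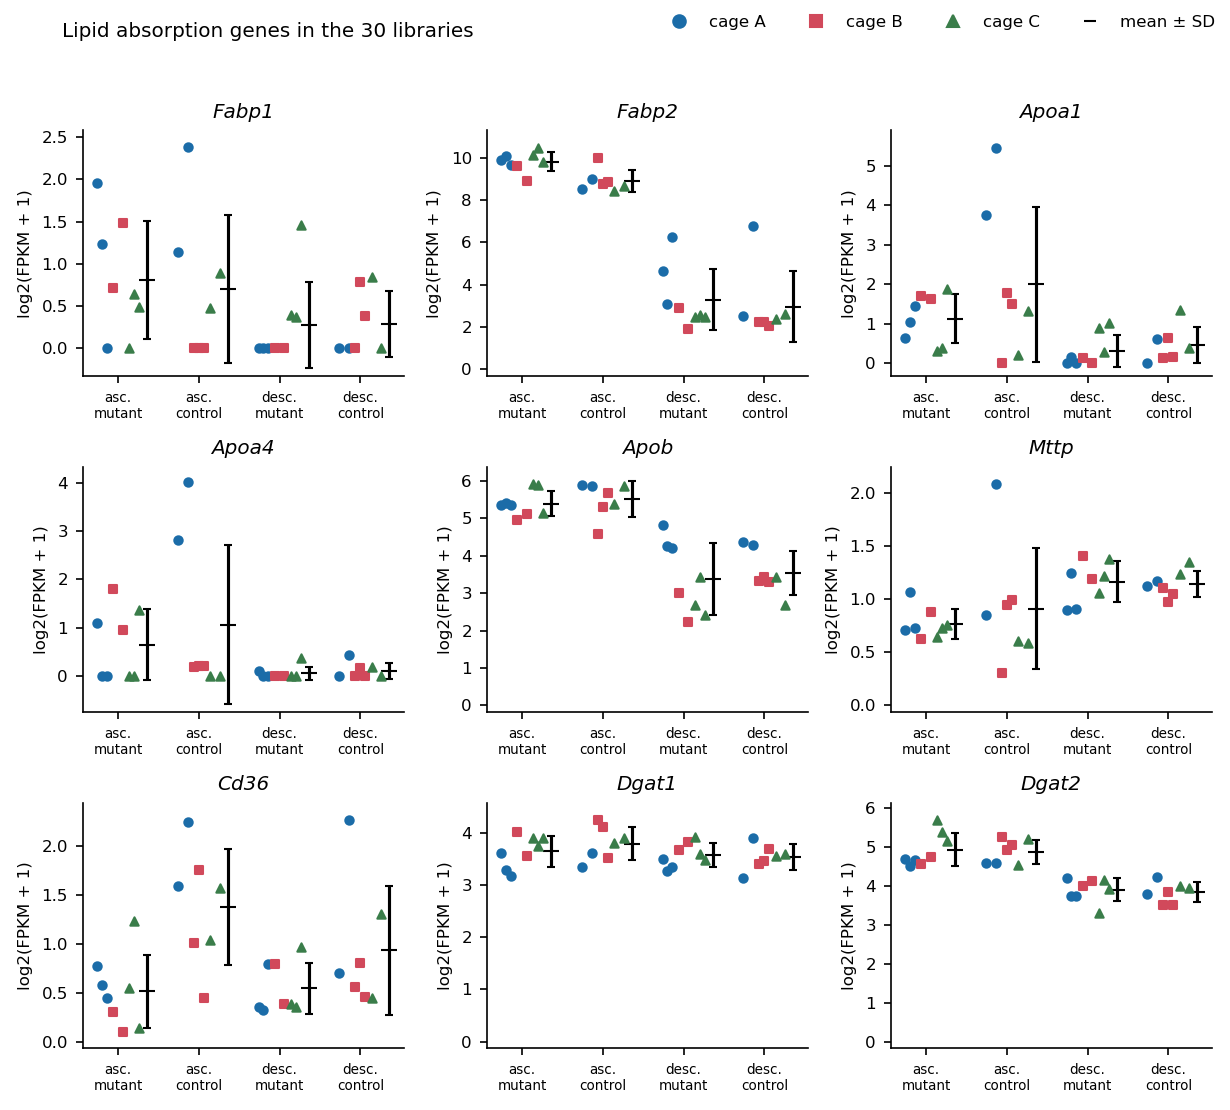
Level of each of the 9 genes in the 30 libraries, as log2(FPKM + 1), with ascending (asc.) and descending (desc.) mutants and controls side by side; each point is a library, its colour and shape give the cage, and the bar is the mean ± SD of the group. Fabp2, Apob and Dgat2 are higher in every ascending library than in any descending library of the same genotype.

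The comparison of regions asks how the ascending colon differs from the descending colon within each genotype. Fabp2, Apob and Dgat2 were higher in the ascending colon in mutants and in controls alike, and for these 3 genes no ascending library of a genotype overlapped its descending libraries. In mutants Apoa1 was also higher and Mttp lower. In the limma fit with cage as a covariate, 4 members were higher and 1 lower of 7 tested in mutants, where 44.0% of all 12203 genes tested were called (14.3% higher and 29.7% lower, at a Benjamini-Hochberg adjusted p under 0.05). In controls 3 members were higher and 0 lower of 9 tested, where 37.9% of 12515 genes were called (12.8% higher and 25.1% lower). Groups that did not overlap were seen for 5.62% of genes in the higher direction in mutants and for 3.83% in controls. Apoa4 and Cd36 in mutants were below the filter of a mean of 0.5 FPKM. In mutants the median log2 difference was 0.82 over the 7 members tested and -0.16 over all genes. In controls it was 0.95 over the 9 members and -0.14 over all genes. The member medians are the single values of Apoa1 in mutants and of Apoa4 in controls. The descending libraries of these genes averaged 0.29 and 0.09 FPKM, so both passed the 0.5 FPKM filter through the ascending libraries.

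The lean of all genes toward the descending colon moved with scaling. With median-of-ratios scaling the median of all genes was -0.03 in mutants and -0.00 in controls, 2338 genes were higher and 2268 lower in mutants, against 1748 higher and 3620 lower on the deposited scale, and 2205 were higher and 1830 lower in controls, against 1598 and 3146. With quantile normalization the split was 2097 higher and 2282 lower in mutants, and 1941 higher and 2262 lower in controls. Under either scaling Fabp2, Apob and Dgat2 stayed higher and called in both genotypes. Mttp in mutants had a difference of -0.32 (adjusted p = 0.0214) with median-of-ratios scaling and -0.28 (adjusted p = 0.0541) with quantile normalization.

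Fabp2 (chr3:122895072-122899506, plus strand, GRCm38) showed the widest contrast of the members. In mutants it ranged from 474 to 1397 FPKM in the ascending colon with a median of 919, against 2.75 to 74.2 with a median of 5.65 in the descending colon. In controls it ranged from 340 to 1006 FPKM in the ascending colon with a median of 433, against 3.14 to 106 with a median of 4.14 in the descending colon. The lowest ascending library thus stood above the highest descending one in each genotype. The log2 difference, ascending minus descending, was 6.53 ± 0.41 in mutants (SE; limma, adjusted p = 1.43e-09) and 5.91 ± 0.57 in controls (adjusted p = 4.49e-06), which are folds of 92.3 and 60.3 on the FPKM + 1 scale. Without ascending control B1 and descending control A2 the difference in controls was 6.34 ± 0.12 (adjusted p = 1.93e-12).

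Few descending libraries held appreciable Fabp2, and those were all in cage A. Descending mutants A1, A2 and A3 had 23.9, 7.52 and 74.2 FPKM and descending controls A1 and A2 had 4.67 and 106 FPKM, while the 5 mutant libraries of cages B and C lay between 2.75 and 6.32 and the 5 control libraries between 3.14 and 5.16. Descending control A2 and mutants A1 and A3 also had the highest Cdx2 (73.3, 47.6 and 24.6 FPKM) and Slc9a3 (176, 64.2 and 37.1 FPKM) of the 15 descending libraries. In mutant A2 and control A1 these were 3.93 and 11.1 FPKM for Cdx2 and 4.59 and 4.86 FPKM for Slc9a3. Slc10a2 was at most 3.13 FPKM in any descending library. The part of these values in the Fabp2 level was not tested.

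Apob (chr12:7977648-8016835, plus strand, GRCm38) lay at 30.2 to 59.2 FPKM in the ascending colon of mutants with a median of 40.1, against 3.70 to 27.1 with a median of 8.41 in the descending colon. In controls it lay at 23.0 to 58.4 FPKM in the ascending colon with a median of 50.1, against 5.46 to 19.7 with a median of 9.81 in the descending colon. No library of one region overlapped the other within a genotype, and the regions came nearest in mutants at 30.2 FPKM (ascending mutant B1) against 27.1 (descending mutant A1). The log2 difference was 2.02 ± 0.26 in mutants (limma, adjusted p = 1.13e-05) and 1.97 ± 0.19 in controls (adjusted p = 5.05e-06), folds of 4.05 and 3.91.

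Within cages the contrast of Apob was smallest in cage A. There the log2 difference was 0.95 in mutants and 1.56 in controls, against 2.43 and 2.80 in mutants and 1.84 and 2.57 in controls of cages B and C. In the descending colon the Apob level depended on cage (moderated F test in limma, adjusted p = 0.00927), as it did for 0.597% of the 12219 genes tested and for 1 of the 6 members tested. All 5 descending libraries of cage A lay between 17.5 and 27.1 FPKM, and the 10 of cages B and C lay between 3.70 and 9.83 FPKM. Mutants A1, A2 and A3 had 27.1, 18.1 and 17.5 FPKM and controls A1 and A2 had 19.7 and 18.5 FPKM. Of these, mutant A2 and control A1 held less Fabp2, Cdx2 and Slc9a3 than the other 3 libraries of their cage. The part of these values in the Apob level was not tested. In the ascending colon the cage test did not call Apob (adjusted p = 0.252), nor any other of the 9 members, at a background of 1.32%. Cage, age and strain label cannot be told apart here.

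**Figure D2:**
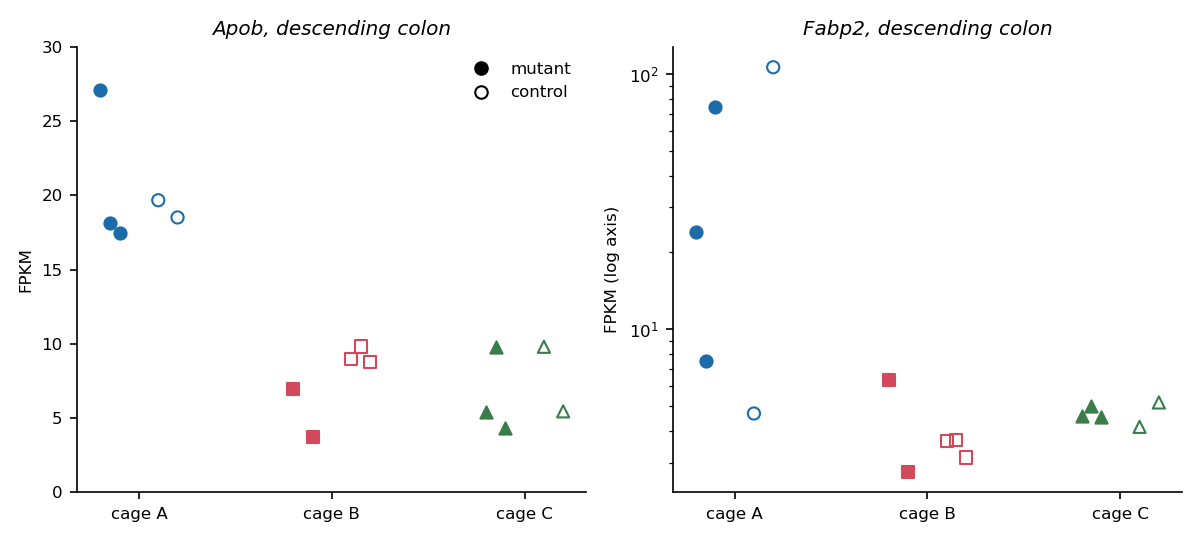
Apob (left, linear axis in FPKM) and Fabp2 (right, log axis in FPKM) in the 15 descending libraries by cage; filled points are mutants, open points controls. All 5 cage A libraries lie above every library of cages B and C for Apob, from 17.5 FPKM upward, whereas for Fabp2 control A1 of that cage lies at 4.67 FPKM among the others.

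Of the acyltransferases, Dgat2 was called between regions in both genotypes and Dgat1 in neither. Dgat2 (chr7:99153658-99182719, minus strand) ranged from 21.8 to 50.3 FPKM in the ascending colon of mutants with a median of 25.4, against 8.97 to 17.5 with a median of 14.6 in the descending colon. In controls it ranged from 22.1 to 37.6 FPKM in the ascending colon with a median of 29.4, against 10.4 to 17.9 with a median of 13.4 in the descending colon. The regions did not overlap in either genotype, and the log2 difference was 1.02 ± 0.17 in mutants (limma, adjusted p = 1.07e-04) and 1.04 ± 0.15 in controls (adjusted p = 1.69e-04). For Dgat1 the regions overlapped, with 8.08 to 15.3 FPKM in the ascending and 8.66 to 14.1 in the descending colon of mutants, and 9.23 to 17.9 in the ascending and 7.74 to 14.02 in the descending colon of controls. Its differences of 0.08 ± 0.10 in mutants (adjusted p = 0.57) and 0.25 ± 0.15 in controls (adjusted p = 0.183) did not pass. In controls Dgat1 passed with median-of-ratios scaling (0.41, adjusted p = 0.0485) and without descending control A2 (0.37, adjusted p = 0.0219). With 1 library left out its difference in controls ran from 0.18 to 0.37, and 13 of these 14 fits left it uncalled. Over the other 12 alternatives it ran from 0.12 to 0.41, and 9 of them left it uncalled. The difference between the Dgat1 and Dgat2 contrasts was not tested.

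Apoa1 and Apoa4 were low in most libraries. Apoa1 was called higher in the ascending colon of mutants (0.82 ± 0.24, limma adjusted p = 0.0125). It lay there between 0.25 and 2.68 FPKM with a median of 1.40, against 0 to 1.02 with a median of 0.11 in the descending colon. It passed the filter of 0.5 FPKM through the ascending libraries, as its descending mean was 0.29 FPKM. The call rests on few reads, an estimated median of 3.07 in ascending and 1.03 in descending mutants. That call was lost without cage A (0.72, adjusted p = 0.129) and without cage B (0.56, adjusted p = 0.134). In controls Apoa1 lay between 0 and 43.0 FPKM in the ascending colon with a median of 1.81, against 0 to 1.55 with a median of 0.32 in the descending colon, and the difference of 1.53 ± 0.58 missed the threshold (adjusted p = 0.0515). By cage this difference was 4.30 in A, 0.78 in B and -0.12 in C, and without cage A it was 0.42 (adjusted p = 0.395). With 1 library left out it ran from 1.06 (without ascending control A2, adjusted p = 0.0977) to 1.82 (without ascending control C1, adjusted p = 0.0280), and it also passed without ascending control B1 (1.80, adjusted p = 0.0265), without descending control C1 (1.80, adjusted p = 0.0307) and without B1 and descending control A2 together (1.59, adjusted p = 0.0454). Apoa4 lay between 0 and 15.1 FPKM in ascending controls and between 0 and 0.35 in descending controls, with a difference of 0.95 ± 0.41 (adjusted p = 0.0863) that was 3.20 in cage A, 0.14 in cage B and -0.09 in cage C, and 0.58 without ascending control A2. In mutants Apoa4 was 0 to 2.50 FPKM in the ascending and 0 to 0.30 in the descending colon.

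In mutants Mttp, which loads lipid onto Apob, was called in the opposite direction to Apob. It lay between 0.54 and 1.10 FPKM in the ascending colon with a median of 0.66, against 0.86 to 1.66 with a median of 1.31 in the descending colon of mutants. Mttp fell by 0.40 on the log2 scale in the ascending colon of mutants (SE 0.11, limma adjusted p = 0.00683), although the groups overlapped. The call was lost without cage B (-0.35, adjusted p = 0.0577) and without cage C (-0.33, adjusted p = 0.133). In controls it lay between 0.24 and 3.24 FPKM in the ascending and between 0.96 and 1.56 in the descending colon, with a difference of -0.23 ± 0.20 (adjusted p = 0.375). Ascending control A2 held the value of 3.24, and without it the difference was -0.42 (adjusted p = 0.0311). Mttp lies on the minus strand of chromosome 3 and overlaps Trmt10a on the plus strand, whose difference was -0.36 ± 0.11 in mutants (adjusted p = 0.0119). Whether counting used strand was not given in the sources used here, so reads from a stretch shared by these genes cannot be told apart. The overlap is one of whole gene spans, and overlap of their exons was not examined. Fabp2 and Apoa4 also overlap annotated genes on the other strand, which are not in the table.

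Cd36 and Fabp1 showed no regional call. Cd36 lay between 0.07 and 1.36 FPKM in the ascending and between 0.25 and 0.96 in the descending colon of mutants. It lay between 0.36 and 3.76 FPKM in the ascending and between 0.36 and 3.80 in the descending colon of controls, with a difference of 0.45 ± 0.26 (limma, adjusted p = 0.188). Without descending control A2, which held the 3.80 FPKM, the difference was 0.61 (adjusted p = 0.0495). The Fabp1 difference was 0.54 ± 0.29 in mutants (adjusted p = 0.146) and 0.41 ± 0.31 in controls (adjusted p = 0.316), and in mutants it was 0.73 (adjusted p = 0.0358) without descending mutant C3, which held 1.75 FPKM.

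**Figure D3:**
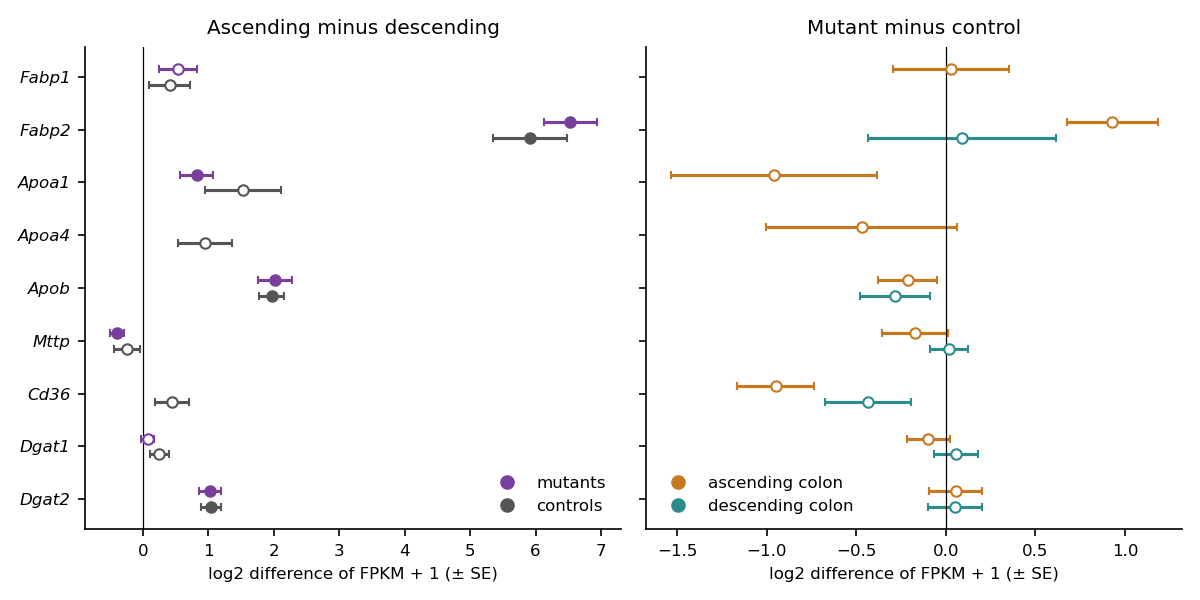
Log2 difference of FPKM + 1 with its standard error from limma for each member, ascending minus descending in mutants and controls (left) and mutant minus control in the ascending and descending colon (right); filled points passed an adjusted p under 0.05, open points did not, and a member below the filter has no point. Fabp2, Apob and Dgat2 are filled in both genotypes on the left, and no point is filled on the right.

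Other genes of the same pathway were listed in 8 groups with 97 genes in all. In mutants 25 of the 79 tested were higher in the ascending colon and 18 lower, and in controls 26 of the 81 tested were higher and 15 lower, against the backgrounds of 14.3% and 29.7% of all genes in mutants and 12.8% and 25.1% in controls. The median log2 difference of these genes was 0.07 in mutants and 0.05 in controls. Of the glycerolipid synthesis genes, 4 were higher and 2 lower of 12 in mutants, and 6 higher and 2 lower of 12 in controls. Mogat2, the monoacylglycerol acyltransferase that feeds the Dgat enzymes, differed by 1.99 ± 0.11 in mutants and 1.94 ± 0.21 in controls, and Gpat3, of the glycerol phosphate pathway, by 2.52 ± 0.13 in mutants and 2.13 ± 0.24 in controls. Lpin2, a phosphatidate phosphatase, differed by 2.41 in mutants and 2.18 in controls, whereas glycerol kinase (Gk) fell by 1.69 in mutants and by 1.47 in controls.

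Uptake and droplet genes were called in both directions. Slc27a4, a fatty acid transport protein, was higher by 1.86 ± 0.13 in mutants and by 1.64 ± 0.10 in controls, and was the single called rise among the 11 uptake and activation genes, of which Acsl1 and Acbd3 were lower in both genotypes (Acsl1 at -0.77 in mutants and -0.73 in controls). Among droplet and lipolysis genes 6 were higher and 2 lower of 9 tested in mutants, and 5 higher and 2 lower of 10 in controls. The monoglyceride lipase Mgll differed by 3.58 ± 0.15 in mutants and 3.18 ± 0.28 in controls, the droplet protein Cidec by 3.07 in mutants and 2.85 in controls, and lipoprotein lipase (Lpl) by 2.23 in mutants and 1.73 in controls. Plin2, a coat protein of droplets, fell by 1.03 in mutants and by 1.11 in controls. Cidec is also on the list of 7 adipocyte markers. The other 6 summed to 0.24 to 22.5 FPKM in ascending mutants against 0.28 to 5.26 in descending mutants. In controls they summed to 0.28 to 56.2 FPKM in the ascending against 0.48 to 15.6 in the descending colon. The ranges of the regions overlapped in both genotypes, but the medians were higher in the ascending colon. They were 3.175 against 0.59 FPKM in mutants and 21.9 against 1.31 FPKM in controls. With Cidec the sums were 8.84 to 34.6 FPKM in ascending mutants against 0.89 to 6.42 in descending mutants, and 9.05 to 71.1 in ascending controls against 0.75 to 17.9 in descending controls. In these bulk samples fewer cells of a type and less RNA per cell cannot be told apart, and the part of adipocytes was not tested.

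Genes of chylomicron assembly were called in both directions, and no other apolipoprotein was called higher in the ascending colon. Of 12 assembly and transport genes, 5 were higher and 2 lower in mutants, and 3 higher and 2 lower in controls. The deaminase of Apob mRNA editing and a cofactor of it are on this list. The deaminase, Apobec1, fell by 0.88 ± 0.16 in the ascending colon of mutants and by 0.71 ± 0.21 in that of controls. The cofactor, A1cf, was higher by 0.67 ± 0.12 in mutants and by 0.78 ± 0.15 in controls. Sar1b, a GTPase of the carrier vesicle of chylomicrons, was higher by 0.75 ± 0.24 in mutants (limma, adjusted p = 0.0162), with a difference of 0.48 ± 0.21 in controls (adjusted p = 0.0870). Of the other apolipoproteins none passed in controls, while Apoe (-0.73 ± 0.24) and Apoc1 (-0.63 ± 0.20) were lower in the ascending colon of mutants. Cholesterol genes were split, with 3 higher and 3 lower of 7 in mutants and 4 higher and 2 lower of 8 in controls. The sterol exporter Abcg5 fell by 1.98 ± 0.28 in mutants and by 1.35 ± 0.49 in controls, and Abcg8 by 1.17 ± 0.23 in mutants. Soat1, a cholesterol acyltransferase, fell by 1.84 in mutants and by 1.58 in controls. Soat2, also a cholesterol acyltransferase, went the other way and was higher by 0.92 ± 0.14 in controls. Lrp1 was higher by 0.86 ± 0.09 in mutants and by 0.94 ± 0.15 in controls.

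Transcription factors known to act on enterocyte lipid genes were called in both directions. Of 19 tested, 6 were higher and 5 lower in mutants, and 7 higher and 5 lower in controls. Cdx2 differed by 3.35 ± 0.33 in mutants and 3.52 ± 0.46 in controls, with 126 to 208 FPKM in ascending against 3.93 to 47.6 in descending mutants, and 119 to 178 in ascending against 2.79 to 73.3 in descending controls. The nuclear receptors Ppara (2.38 in mutants and 2.17 in controls), Nr1h4, the bile acid receptor (1.90 in mutants and 1.81 in controls), and Pparg (1.89 in mutants and 1.74 in controls) were higher as well.

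The comparison of mutants with controls asks what the loss of O-glycans changed in each region. None of the 9 members passed the test in the ascending colon, where 0.0% of 12178 genes were called by limma and 1396 genes, 2 of them members, had an unadjusted p under 0.05. None of the 6 members tested passed in the descending colon, where 0.0% of 12219 genes were called and 267 genes but no member had an unadjusted p under 0.05. The difference between the regional effects was called for 0.0% of 12353 genes, with 198 genes and no member at an unadjusted p under 0.05. The median over the 9 members in the ascending colon was -0.17, against -0.05 over all genes, and 0 members had groups that did not overlap, against 0.0985% of all genes; in the descending colon the counts were 0 members and 0.0% of genes. The 80 pathway genes tested likewise gave 0 calls in each region.

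Fabp2 had the widest positive difference of the members in the ascending colon. It ranged from 474 to 1397 FPKM in mutants with a median of 919, against 340 to 1006 with a median of 433 in controls. In cage A the mutants had 958, 1076 and 803 FPKM against 362 and 501 in controls, and in cage C they had 1114, 1397 and 880 against 340 and 399, so that every mutant stood above every control of its cage. In cage B the mutants had 785 and 474 FPKM against 1006, 433 and 462 in controls, and the groups overlapped. The log2 difference was 0.93 ± 0.25 (limma, adjusted p = 0.257), and reassigning genotype within cages gave p = 0.01 over 1000 assignments (exact permutation test, two-sided, not adjusted for the 9 members). By cage the difference was 1.14 in A, 0.06 in B and 1.59 in C, and the dependence on cage was not called (F test, adjusted p = 0.448).

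Without ascending control B1, which held the 1006 FPKM, the Fabp2 difference was 1.09 ± 0.19 and was not called (adjusted p = 0.0962). It passed without cage B (1.36 ± 0.17, adjusted p = 0.00977), where 5.38% of 12115 genes passed, and with array quality weights (1.02 ± 0.20, adjusted p = 0.0270), where 6.13% of 12178 genes passed. Against 0 genes called with all cages and equal weights, both settings thus raised the calls of many genes besides Fabp2. The summed level of 7 absorptive colonocyte markers was also higher in mutants, at 8760 to 14170 FPKM in ascending mutants and 4376 to 8336 in ascending controls. Carbonic anhydrase Car1, at 6994 to 12335 FPKM in mutants and 2799 to 7200 in controls, made up most of the sum except in control B1. Among controls the sum did not follow Fabp2. Control B1, with 1006 FPKM of Fabp2, had a sum of 7311 and the lowest Car1, and control B2, with 433 FPKM, had the highest sum. The summed small intestinal markers were 117 to 180 FPKM in mutants and 82.0 to 182 in controls. The part of these cells in the Fabp2 level was not tested. In the descending colon Fabp2 was 2.75 to 74.2 FPKM in mutants and 3.14 to 106 in controls, a difference of 0.09 ± 0.53 (adjusted p = 0.999) that was 0.60 without descending control A2. The difference between regions of the mutant effect was 0.84 (adjusted p = 1.00), and 0.49 (adjusted p = 0.86) without ascending control B1 and descending control A2.

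Cd36 ran the other way in the ascending colon. It had a range of 0.07 to 1.36 FPKM and a median of 0.41 in mutants, against 0.36 to 3.76 and a median of 1.97 in controls. In cage A the mutants had 0.71, 0.50 and 0.36 FPKM against 2.01 and 3.76 in controls, and in cage B 0.23 and 0.07 against 1.01, 2.37 and 0.36, so that the groups of both cages did not overlap. In cage C the mutants had 0.46, 1.36 and 0.10 FPKM against 1.05 and 1.97 in controls, and mutant C2 lay among the controls. The log2 difference was -0.95 ± 0.21 (limma, adjusted p = 0.214), with -1.32 in cage A, -0.87 in cage B and -0.66 in cage C, and p = 0.005 over 1000 assignments (exact permutation test within cages, two-sided, not adjusted for the 9 members). These levels rest on few reads, an estimated 0.889 to 37.8 with a median of 3.31 in ascending mutants and 4.72 to 87.1 with a median of 25.3 in ascending controls. Cd36 passed without cage B (-0.99, adjusted p = 0.0415) and with array quality weights (-1.01, adjusted p = 0.0276), the settings under which 5.38% and 6.13% of all genes passed. In the descending colon Cd36 was 0.25 to 0.96 FPKM in mutants and 0.36 to 3.80 in controls, a difference of -0.44 ± 0.24 (adjusted p = 0.999). Without descending control A2, which held the 3.80 FPKM, it was -0.17 ± 0.17.

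Cd36 is carried by several cell types besides enterocytes, among them macrophages, adipocytes and the endothelium of blood vessels. The 7 macrophage markers summed to 6.01 to 74.0 FPKM in ascending mutants and 18.0 to 194 in ascending controls, the 7 adipocyte markers to 8.84 to 34.6 in mutants and 9.05 to 71.1 in controls (without Cidec, 0.24 to 22.5 in mutants and 0.28 to 56.2 in controls), and the 6 endothelial markers in the table to 1.28 to 2.60 in mutants and 0.69 to 4.85 in controls. Over the 15 ascending libraries the genes whose levels most resembled Cd36 among 10886 compared were haptoglobin (Hp, Pearson r = 0.92), the adipocyte and macrophage binding protein Fabp4 (r = 0.91) and the macrophage gene Mpeg1 (r = 0.89). Over the 15 descending libraries these were 0.63, 0.65 and 0.87. The libraries share cage, genotype and depth differences, and the part of these cells in the Cd36 level was not tested.

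**Figure D4:**
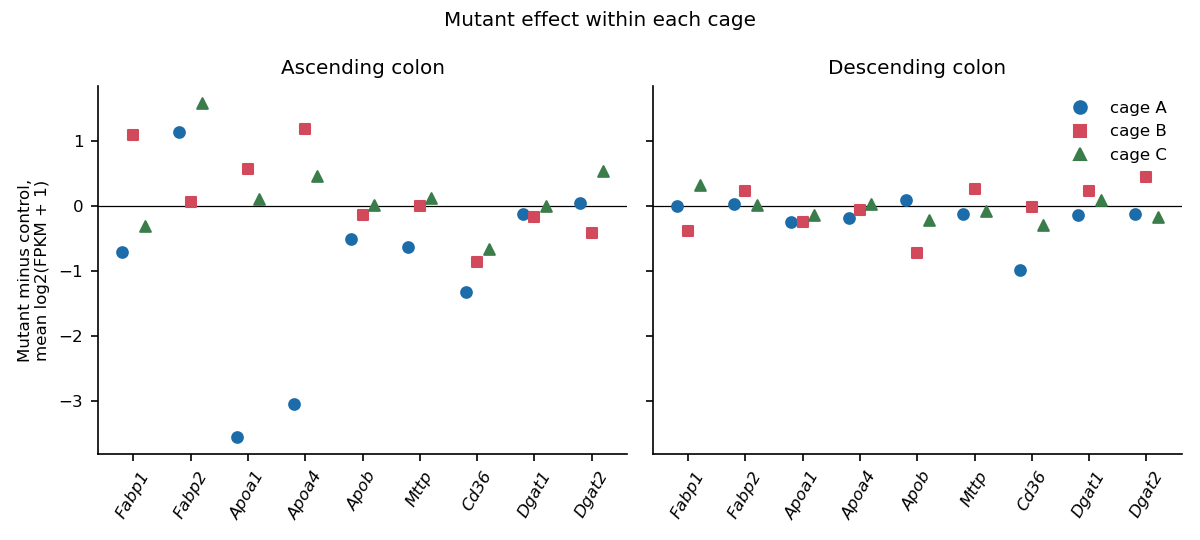
Mutant minus control difference of mean log2(FPKM + 1) for each member within each cage, in the ascending (left) and descending (right) colon. In the ascending colon Cd36 is below 0 in all 3 cages, Fabp2 is above 0 by 1.14 and 1.59 in cages A and C and by 0.06 in cage B, and Apoa1 and Apoa4 are far below 0 in cage A at -3.57 and -3.05.

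Apoa1 and Apoa4 lie 10.2 kb apart on the plus strand of chromosome 9, with Apoc3 between them on the minus strand. In ascending cage A the mutants had 0.56, 1.05 and 1.74 FPKM of Apoa1 against 12.5 and 43.0 in controls. For Apoa4 the same mutants had 1.13, 0 and 0 FPKM, against 6.03 and 15.1 in the controls. These mutants were the shallowest of the 30 libraries, at an estimated 1.48, 1.58 and 1.43 M reads, against 3.51 and 6.45 in the controls. Their Apoa1 values rest on an estimated 1.03, 2.06 and 3.07 reads, and their Apoa4 values on 3.04, 0 and 0. Every other ascending control was at 2.44 FPKM or less for Apoa1 and at 0.16 or less for Apoa4, and the mutants of cages B and C reached 2.68 and 2.50 FPKM, so that the contrast was one of 2 control libraries. Over all cages the difference was -0.96 ± 0.58 for Apoa1 (limma, adjusted p = 0.539) and -0.47 ± 0.53 for Apoa4 (adjusted p = 0.748). Without cage A it was 0.34 for Apoa1 and 0.82 for Apoa4 (adjusted p = 0.981 each).

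A mutant effect that depended on cage was called for 0.0% of genes in the ascending colon, with 1264 genes at an unadjusted p under 0.05 in the moderated F test, and for 0.00818% in the descending colon, with no member there. Apoa4 had an adjusted p of 0.142 and Apoa1 of 0.443 in that test, and Apoa4 passed without ascending mutant B2 (adjusted p = 0.0249), where 3.13% of genes were called. Ascending controls A1 and A2 also held the highest lactase (Lct, 0.95 and 1.96 FPKM, against at most 0.20 in the other 13 ascending libraries), cholesterol transporter Npc1l1 (2.62 and 3.96, against at most 1.25) and Apoc3 (0.86 and 2.33, against at most 0.69). Control A2 held the highest Mttp (3.24 FPKM) and Fabp1 (4.24 FPKM) of all 30 libraries. Of the 9 small intestinal markers, 1 (Lct) was higher in both of these controls than in each of the other 13 ascending libraries. The aminopeptidase Anpep was 5.79 FPKM in control A1 and 18.0 in control A2, against 0.99 to 5.79 in the others. Gata4 was 0.14 FPKM in control A1 and 0.93 in control A2, against at most 0.33 in the others. Sucrase-isomaltase was 8.90 and 10.8 FPKM in these controls and 14.6 FPKM in ascending control C2, where Apoa1 was 1.49. The retinol-binding protein Rbp2 was 7.56 and 15.2 FPKM in controls A1 and A2, against 7.12 to 42.5 in the others, and the 9 markers summed to 149 and 182 FPKM, against 82.0 to 180 in the others. Of 8 hepatocyte markers 5 are in the table, and they summed to 2.01 and 3.31 FPKM in ascending controls A1 and A2. Their sums ran from 0.69 to 3.68 FPKM in ascending mutants and from 0.70 to 3.31 in ascending controls. Albumin (Alb), 1 of these markers, was listed at 0 in every ascending library. The part of small intestinal enterocytes or hepatocytes in these values was not tested.

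**Figure D5:**
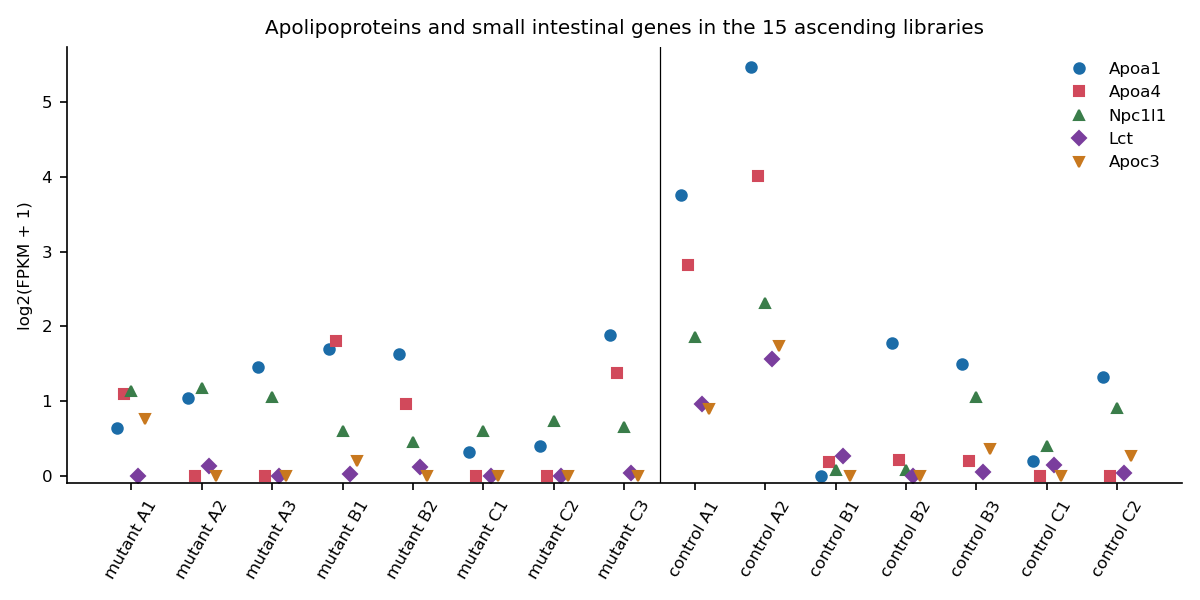
Level of Apoa1, Apoa4, Apoc3, the cholesterol transporter Npc1l1 and lactase (Lct) as log2(FPKM + 1) in each of the 15 ascending libraries, mutants to the left of the line and controls to the right. All 5 genes are highest in control A2, at 43.0 FPKM for Apoa1 and 1.96 FPKM for Lct, and next highest in control A1.

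Apoa1 and Apoa4 had their highest Pearson r with each other over the 15 ascending libraries (r = 0.89). Without the 2 libraries farthest from the median r was 0.47, and over the 15 descending libraries it was 0.60. Next for Apoa1 were Cd3d (0.83) and Il2rg (0.82), with 0.04 and -0.13 in the descending colon. Without the 2 farthest libraries the r of Apoa1 with Cd3d was 0.73, above that with Apoa4. Next for Apoa4 were Ctxn1 (0.78) and Cd3d (0.75), with 0.46 and -0.31 in the descending colon. Fabp2 most resembled the galectin Lgals3 (r = 0.94), the cytochrome Cyp2c55 (0.92) and Perp (0.89), and over the descending libraries these were 0.18, 0.26 and 0.06. For Dgat2 the nearest genes were Usp2 (0.89), Abhd2 (0.87) and Prr15l (0.85), with -0.54, 0.02 and -0.34 in the descending colon. Apob most resembled Fam20b (0.82), Vstm5 (0.81) and Dpyd (0.81), with -0.04, -0.43 and -0.29 in the descending colon. Dgat1 most resembled AI661453 (0.88), Rffl (0.88) and Tbc1d2 (0.87), with 0.27, 0.47 and 0.72 there. These are descriptions of 15 libraries that share cages and genotypes.

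The other members had smaller differences between genotypes, none of which passed. In the ascending colon Apob had a median of 40.1 FPKM in mutants and 50.1 in controls (-0.21 ± 0.16, limma adjusted p = 0.638), and Mttp 0.66 in mutants and 0.81 in controls (-0.17 ± 0.19, adjusted p = 0.735). Dgat1 had a median of 11.8 FPKM in mutants and 13.04 in controls (-0.10 ± 0.12, adjusted p = 0.77), and Dgat2 25.4 in mutants and 29.4 in controls (0.05 ± 0.15, adjusted p = 0.904). For Fabp1 the medians were 0.60 FPKM in mutants and 0.39 in controls (0.03 ± 0.33, adjusted p = 0.979). In the descending colon the differences of Apob (-0.28), Mttp (0.02), Dgat1 (0.06) and Dgat2 (0.05) had adjusted p = 0.999 each, and Fabp1, Apoa1 and Apoa4 were below the filter. Dgat2 in ascending cage C was 50.3, 40.9 and 34.6 FPKM in mutants against 22.1 and 35.8 in controls, while in cage B it was 22.7 and 25.9 in mutants against 37.6, 29.4 and 31.9 in controls, a reversal between cages that the F test did not call (adjusted p = 0.443).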

How the data were processed

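Per the labels' protocols, libraries were made from 1 µg of RNA with depletion of rRNA and read as single reads of 50 nt. The authors deposited 1 table of FPKM values with 2 decimals. Demultiplexing with bcl2fastq 2.17, alignment software STAR, DESeq2 and build GRCm38 (mm10) are named in the submitters' processing notes. The counter, its strand setting, annotation and gene lengths were not given in the sources used here. Among 14475 identifiers, 14472 were found in GENCODE M21, which gave positions. Read counts are not given. Depth was estimated from the steps of low values (72.9 to 83.0% of them within 0.2 of a whole read) and entered no test.

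Values were taken as log2(FPKM + 1), so fold changes understate the change of low genes. Each fit kept genes averaging 0.5 FPKM or more over its libraries and tested them with limma 3.58.1 in R 4.3.3 (lmFit, eBayes with trend), with cage as a covariate, two-sided, Benjamini-Hochberg over all genes kept. Effects that depend on cage used moderated F tests. The fits were tested on simulated data. The members, gene lists and tests were chosen with earlier results of these data known. All 9 members are named, with up to 4 called genes of each pathway list in each comparison with the largest differences, and for each member with a mean of at least 1 FPKM in the ascending colon the 3 genes of highest Pearson correlation; marker genes and targets were named beside them after their values were seen. Alternatives were a pseudocount of 0.1, filters of none or 2 FPKM, median-of-ratios or quantile scaling, array quality weights, no cage covariate, a replicate block, 1 cage or 1 library left out, and, after seeing the data, ascending control B1 and descending control A2 left out together. Promoters came from RefSeq (GRCm38.p6). Python 3.11.15, pandas 2.3.3 and matplotlib 3.10.9 made the tables and figures.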

Additional observations from a re-analysis of the deposited data

Results flagged for a closer look

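Of 36 groups of values examined (9 genes in 4 groups), 5 had 1 library far from the others on the log2(FPKM + 1) scale, where chance flags about 1 in 20 groups of normally spread values, a rate that need not hold for genes listed at 0 in most libraries, such as Fabp1 and Apoa4 in descending mutants (5 and 6 of 8 at 0). Fabp2 was 1006 FPKM in ascending control B1, against 340 to 501 in the other 6 ascending controls, and 106 FPKM in descending control A2, against 3.14 to 5.16 in the other 6 descending controls. Mttp was 3.24 FPKM in ascending control A2, against 0.24 to 0.99 in the others, in the library that also had the highest Apoa1 and Apoa4. Descending mutant C3 stood apart for Fabp1, at 1.75 FPKM against 0 to 0.31, and for Apoa4, at 0.30 FPKM against 0 to 0.08; both values are worth a few reads at the estimated depth.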

How the results depend on the processing

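Fabp2, Apob and Dgat2 kept their higher level in the ascending colon and their call in both genotypes under every alternative run, with Fabp2 between 5.08 and 7.31 in all. In two-sided exact permutation tests within cages, unadjusted, Fabp2, Apob and Dgat2 each reached the smallest p that the design can give, 0.000833 in mutants and 0.00278 in controls. The same-numbered libraries of the 2 regions deviated together with r of -0.26 to 0.36 (4 of 15 pairs over 0.1), and those of mutants and controls with -0.18 to 0.38 (6 of 12). Between regions, a genotype with 2 libraries in a cage gave the same r for both pairs, as for mutants B1 and B2 (-0.26). These values cannot decide whether the same animals gave both regions. The fits reported did not pair samples by number and treated the libraries of the 2 regions as independent. With the replicate block 0 members were called between genotypes in either region and in the difference between regions, Fabp2 in the descending colon was -0.18, 4 members were called between regions in controls (Cd36 added at 0.45, adjusted p = 0.0456) and 5 in mutants. Members called in the ascending colon, mutant minus control, were 2 (Fabp2 and Cd36) with array quality weights and 2 without cage B, with 6 and 9 pathway genes, while 746 and 652 of all genes were called against 0 in the fit reported, and pathway genes called ran from 0 to 1 with 1 library left out (1 without ascending mutant B1, where 1.40% of all genes were called). Members called between regions in controls were 6 with array quality weights (49.8% of all genes called), 5 without ascending control B1 and descending control A2 (43.0%), and 3 to 5 with 1 library left out (5 without descending control A2, 43.9%), and 24 pathway genes were called without cage B (16.4%). In mutants 3 members were called with a filter at 2 FPKM, which leaves Apoa1 and Mttp untested, and 3 without cage B (34.3%). Members whose mutant effect depended on cage in the ascending colon ran from 0 to 1 with 1 library left out (Apoa4, without ascending mutant B2, 3.13%). Members that differed between cages were 2 in the ascending colon with array quality weights (Dgat1 and Dgat2, where 13.0% of all genes were called) and 0 to 1 with 1 library left out (Dgat2, without ascending control C1, 1.11%), and 1 to 2 in the descending colon (Fabp2 added, without descending control A1, 0.582%). Differences that did not pass changed sign under some alternatives, and the cause was not tested. In the ascending colon, without cage A Apoa1 was 0.34, Apoa4 0.82 and Mttp 0.058, without cage B Fabp1 was -0.50, and without cage C Dgat2 was -0.19. With 1 library left out there, Fabp1 ran from -0.21 to 0.28, Apoa4 from -0.81 to 0.041, Mttp from -0.25 to 0.040 and Dgat2 from -0.095 to 0.14. In the descending colon without cage B, Mttp was -0.10, Dgat1 -0.030 and Dgat2 -0.15, and with 1 library left out Fabp2 ran from -0.41 to 0.60, Mttp from -0.043 to 0.046, Dgat1 from -0.0088 to 0.18 and Dgat2 from -0.023 to 0.13. For the difference between regions, Apob was -0.0025 with quantile normalization, -0.085 with array quality weights, -0.19 without cage B and -0.0068 without cage C; Dgat2 was -0.041 with quantile normalization, -0.12 with array quality weights, -0.073 without cage A, -0.35 without cage C, -0.016 with no cage covariate and -0.016 without the 2 control libraries; Apoa1 was 0.54 without cage A; and Fabp1 was -0.66 without cage B and -0.0047 without the 2 control libraries. With 1 library left out Apob ran from -0.084 to 0.17, Dgat2 from -0.15 to 0.094, Fabp1 from -0.19 to 0.25 and Mttp from -0.27 to 0.023. Depth limits the low genes: 1 read is worth an estimated 0.204 to 1.27 FPKM of Fabp1, 0.0914 to 0.567 of Apoa1 and 0.0622 to 0.386 of Apoa4, and Cd36 rested on a median of 3.31 estimated reads in ascending mutants.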
